A study of Mus musculus with 8 samples.

Results

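The Wnt signalling set was taken as every gene in the deposited tables named as a Wnt ligand, a Frizzled receptor, Lrp5 or Lrp6, a secreted Frizzled-related protein (Sfrp), a Dickkopf (Dkk), a TCF/LEF factor or an R-spondin, together with Axin2, Ctnnb1, Lgr5, Rnf43 and Znrf3. It held 52 of the 49315 genes listed. These were 19 ligands, 12 receptors, 7 genes that set how much receptor stays at the cell surface, 8 secreted antagonists and 6 intracellular transducers. The antagonists are the Sfrp and Dkk genes, grouped by family name. All were measured by RNA sequencing in immortalized mouse embryonic fibroblasts (MEFs), a cultured line of embryonic connective tissue cells. Of the 8 libraries, 4 are labelled Opa1-/- and 4 Opa1-/- + OPA1. Both kinds of cell therefore carry the Opa1 deletion, and the second kind had OPA1 put back. OPA1 is the dynamin-like GTPase that fuses the inner mitochondrial membrane and shapes its cristae. No treatment is given for either group, and wild-type MEFs were not analysed here. The sources used here do not state what drives the reconstituted OPA1 or whether a line is a single clone. The labels do not say that libraries of a group came from separate cultures, so every p-value here reflects library-to-library spread alone, part of which can be technical.

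Wnt proteins are lipid-modified ligands that leave the cell with the carrier Wls and bind a Frizzled receptor. With the co-receptors Lrp5 or Lrp6, the Frizzled stops the destruction complex from degrading β-catenin, the product of Ctnnb1, which then enters the nucleus and works with TCF/LEF factors. Other Wnts act through Frizzleds and the receptors Ror1 or Ror2 on cell polarity and movement, without β-catenin. Sfrp proteins bind Wnts outside the cell, and most Dickkopfs bind Lrp5 and Lrp6. The ubiquitin ligases Rnf43 and Znrf3 remove Frizzleds unless R-spondins and Lgr receptors hold them back. In connective tissue the pathway is best known for its part in bone formation, the restraint of fat cell formation and fibrosis.

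The start regions of 4 ligands that differed between the groups in opposite directions are shown so that their sequences can be set side by side. Wnt10a, the most abundant ligand, is not shown. The windows are those of RefSeq for GRCm38.p6, from 250 bases before to 50 bases after an annotated start, 5′ to 3′ on the gene's strand. Capitals mark CTTTGA, the core that TCF/LEF factors bind, searched on both strands, where it reads TCAAAG on the other one. Wnt10b and Wnt6 were lower in Opa1-/- cells and Wnt16 and Wnt5b were higher. The windows are chr15:98778101-98778400 on the minus strand for Wnt10b, chr1:74771642-74771941 on the plus strand for Wnt6, chr6:22287977-22288276 on the plus strand for Wnt16 and chr6:119449337-119449636 on the minus strand for Wnt5b.
Wnt10b: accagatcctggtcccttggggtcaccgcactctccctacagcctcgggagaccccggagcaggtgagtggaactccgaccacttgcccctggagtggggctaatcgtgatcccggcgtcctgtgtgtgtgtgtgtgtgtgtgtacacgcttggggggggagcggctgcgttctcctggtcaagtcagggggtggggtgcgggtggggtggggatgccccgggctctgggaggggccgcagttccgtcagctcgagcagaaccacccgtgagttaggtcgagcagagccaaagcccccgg
Wnt6: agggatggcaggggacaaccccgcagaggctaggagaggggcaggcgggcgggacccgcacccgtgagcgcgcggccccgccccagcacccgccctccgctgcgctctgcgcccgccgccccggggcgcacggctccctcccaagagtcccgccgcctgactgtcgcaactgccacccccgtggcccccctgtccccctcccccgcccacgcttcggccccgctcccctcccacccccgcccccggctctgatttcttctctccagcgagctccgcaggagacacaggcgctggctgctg
Wnt16: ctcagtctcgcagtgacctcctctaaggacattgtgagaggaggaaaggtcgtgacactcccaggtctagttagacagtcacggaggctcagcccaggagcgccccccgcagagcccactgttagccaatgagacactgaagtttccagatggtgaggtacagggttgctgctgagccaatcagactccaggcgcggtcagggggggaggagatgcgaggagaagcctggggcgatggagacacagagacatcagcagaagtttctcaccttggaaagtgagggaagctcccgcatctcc
Wnt5b: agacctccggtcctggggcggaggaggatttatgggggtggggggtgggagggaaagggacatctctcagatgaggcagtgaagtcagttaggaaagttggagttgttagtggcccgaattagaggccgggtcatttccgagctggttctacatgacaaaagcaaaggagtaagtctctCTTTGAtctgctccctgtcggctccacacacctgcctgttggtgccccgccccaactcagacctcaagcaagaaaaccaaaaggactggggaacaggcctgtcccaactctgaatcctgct
The core is in the Wnt5b window, 71 bases before the start, and in none of the other windows shown. The Wnt5b window was chosen for display because it holds the core, so the match there says nothing about Wnt5b beside the other genes. It is 1 of 3 that RefSeq gives for Wnt5b, and the only one of them with the core. Of the 52 genes, 34 had a window, and 5 of these held the core in at least 1 window (14.7%), namely Dkk1, Fzd1, Lef1, Wnt11 and Wnt5b. Over all 27025 genes with a window the share was 18.2%. The GC content was 66.3% for Wnt10b, 76.7% for Wnt6, 58.0% for Wnt16 and 55.0% for Wnt5b. It was 53.0% and 78.0% in the Wnt5b windows not shown. For Wnt4, which also rose and is not shown, it was 84.3%. Whether GC content goes with the direction of change was not tested. A match is a run of letters and no evidence of binding.

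The files give TPM, a level per transcript length that sums to the same total in every library. Levels below are TPM scaled once more between libraries, and differences are Opa1-/- minus Opa1-/- + OPA1 on the scale of log2(scaled TPM + 1), which understates changes of genes near or below 1 TPM. The reads behind the values came out at 52938839 to 57819535 per library. Total Opa1 was 14.8, 14.7, 13.7 and 12.5 TPM in the libraries labelled Opa1-/-, against 15.6, 14.6, 14.5 and 14.5 TPM in those labelled Opa1-/- + OPA1. Its difference of -0.09 (SE 0.06) did not pass the test (limma, adjusted p = 0.305), so the summed level of this gene does not check the labels, and groups are called here as they are labelled. The sources used here do not state which exons the deletion removes. Of 10 fibroblast markers, 9 were at or above 1 TPM in every library and Pdgfra was below it in every library. Their sum was 2713 to 3002 TPM in Opa1-/- libraries, against 3151 to 3221 TPM in Opa1-/- + OPA1 libraries, without overlap. Among them S100a4, Col1a2, Col1a1, Pdgfrb and Fbn1 fell, by 0.84, 0.56, 0.52, 0.45 and 0.40, and Col3a1 rose by 0.42. Of 5 endothelial markers none reached 1 TPM, and of 5 haematopoietic markers only Cd68 did. Cartilage and bone markers, led by Acan, summed to 60.7 to 72.6 TPM in Opa1-/- cells, against 114 to 127 TPM in Opa1-/- + OPA1 cells. Acan, at 14.7 to 18.1 TPM in Opa1-/- libraries, against 60.6 to 66.6 TPM in Opa1-/- + OPA1 libraries, made up most of that gap. Sox9 fell by 0.32, and Col2a1 did not pass (difference -0.03, limma adjusted p = 0.839). Sp7 and Bglap were not tested, and their groups overlapped. Epithelial markers summed to 176 to 213 TPM in Opa1-/- libraries, against 144 to 207 TPM in Opa1-/- + OPA1 libraries, an overlap set by Krt18, which makes up most of that sum. Of the other tested epithelial markers, Krt8 was at 3.93 to 5.57 TPM in Opa1-/- libraries, against 1.85 to 2.44 TPM in Opa1-/- + OPA1 libraries, and Cdh1 at 11.4 to 15.4 TPM in Opa1-/- libraries, against 7.01 to 8.92 TPM in Opa1-/- + OPA1 libraries. Both rose, by 0.80 and 0.61 (limma adjusted p = 0.000590 and 0.00206), and Epcam and Krt14, below 1 TPM throughout, were also higher in every Opa1-/- library. Neural markers, led by Nes, summed to 41.4 to 55.1 TPM in Opa1-/- libraries, against 72.7 to 80.1 TPM in Opa1-/- + OPA1 libraries. The part of these marker groups in the results was not tested. As these are bulk libraries, fewer cells that express a gene and less RNA per cell cannot be told apart.

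Of the 52 genes, 31 reached 1 TPM in at least 4 libraries and were tested, and 21 stayed below that level. In Opa1-/- cells 13 rose, 4 fell and 14 did not pass the test, at an adjusted p below 0.05 over all 14272 genes tested (limma, Benjamini-Hochberg). The 17 changed genes stand beside 33.0% of all tested genes that passed the same test, 16.3% higher and 16.8% lower. The libraries of the groups did not overlap for 19 of the 31, with Opa1-/- above in 15 and below in 4, beside 36.3% of all tested genes. The median difference was 0.22 over the 31 and 0.00 over all tested genes. Wnt5b, Wnt16 and Sfrp2 were tested only because their Opa1-/- libraries reached 1 TPM, so they could hardly fail to be higher there. Without them 10 rose and 4 fell of 28. Groups then did not overlap with Opa1-/- above in 12 and below in 4, and the median difference was 0.20. Wnt16 was the only member past the test whose fitted difference also reached 2-fold, beside 1.26% of all tested genes. It is 1 of those 3 genes, and over the other 28 the differences ran from -0.97 to 0.93. The fitted scale understates low genes. The ratio of mean levels was also above 2-fold for Sfrp2 (4.07), Wnt5b (3.70) and Fzd4 (2.19), and the lowest ratio was 0.51, for Wnt10a. By role, the fallen genes were 3 ligands and 1 receptor. Ligands rose in 4 of 9 tested, Frizzled receptors in 4 of 8, antagonists in 3 of 4 and transducers in 2 of 5. These stand beside the 16.3% of all tested genes that rose, and they include Wnt5b, Wnt16 and Sfrp2.

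**Figure D1:**
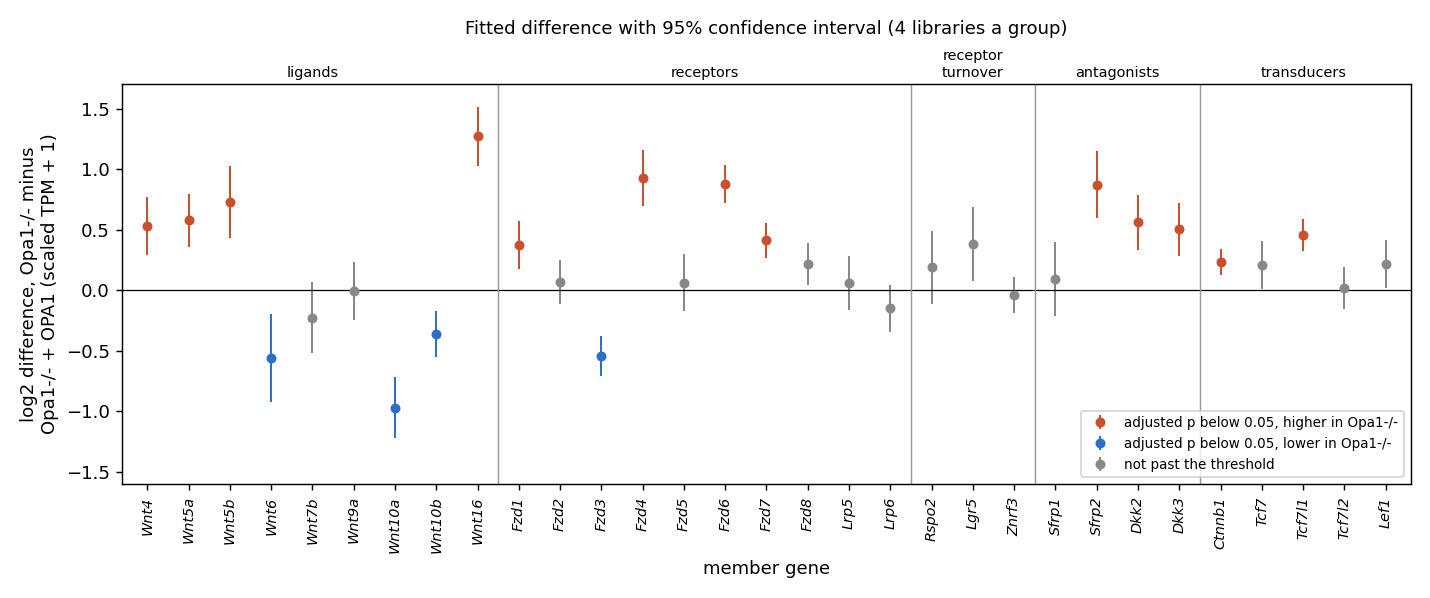
Log2 difference, Opa1-/- minus Opa1-/- + OPA1, on log2(scaled TPM + 1), for the 31 Wnt signalling genes tested, grouped by role, with bars for the 95% interval. Wnt16 has the greatest positive difference at 1.27 and Wnt10a the greatest negative one at -0.97.

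Wnt10a was the most abundant ligand in every library, and its level in Opa1-/- cells was about 0.51 of that in Opa1-/- + OPA1 cells. Wnt10a (ENSMUSG00000026167, GRCm38 chr1:74791516-74804179, plus strand) encodes a β-catenin-pathway ligand needed for teeth, hair and sweat glands. It was at 57.1, 57.8, 76.2 and 74.4 TPM in Opa1-/- libraries 1 to 4, against 118, 121, 142 and 140 TPM in Opa1-/- + OPA1 libraries 1 to 4. The groups were far apart, and in both the libraries numbered 3 and 4 were above those numbered 1 and 2. The means were 66.4 ± 10.3 and 130 ± 12.4 TPM (SD, n = 4 each), a difference of -0.97 (SE 0.11, limma adjusted p = 0.000283).

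Wnt6 lies next to Wnt10a on the same strand, with 6193 bases between the genes, and encodes another ligand of the family. It was at 4.31, 3.88, 6.72 and 6.58 TPM in Opa1-/- libraries, against 7.80, 7.47, 7.99 and 9.83 TPM in Opa1-/- + OPA1 libraries. The groups did not overlap, but the gap between Opa1-/- libraries 3 and 4 and the nearest Opa1-/- + OPA1 library was small beside the spread within Opa1-/-. The difference was -0.56 (SE 0.16, limma adjusted p = 0.0248). It no longer passed without Opa1-/- library 1 (limma adjusted p = 0.0621) or 2 (0.0550), or without Opa1-/- + OPA1 library 3 (0.0525) or 4 (0.0704).

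Wnt10b, a ligand known to favour bone over fat cell formation, was the other abundant ligand. It was at 44.6, 39.3, 47.3 and 52.5 TPM in Opa1-/- libraries, against 62.6, 62.0, 57.6 and 54.6 TPM in Opa1-/- + OPA1 libraries. No Opa1-/- library reached the lowest of the others, although library 4 of each group came close to the other. The difference was -0.36 (SE 0.08, limma adjusted p = 0.0101).

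The 4 ligands that rose in Opa1-/- cells were all expressed at low levels. Wnt16, a ligand known in bone and joints, was at 2.31, 1.84, 2.09 and 2.00 TPM in Opa1-/- libraries, against 0.264, 0.395, 0.231 and 0.185 TPM in Opa1-/- + OPA1 libraries. These values rest on 181, 145, 168 and 169 reads in Opa1-/- libraries, against 22, 32, 19 and 15 reads in Opa1-/- + OPA1 libraries. Every Opa1-/- library was several-fold above every other one. The ratio of the mean levels was 7.65, and the difference on the log scale was 1.27 (SE 0.11, limma adjusted p = 6.32e-05).

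Wnt5b, which like Wnt5a acts mostly without β-catenin, was at 1.34, 1.29, 1.00 and 1.07 TPM in Opa1-/- libraries, against 0.197, 0.568, 0.200 and 0.304 TPM in Opa1-/- + OPA1 libraries. It rested on 49 to 64 reads in Opa1-/- libraries, against 10 to 28 reads in Opa1-/- + OPA1 libraries. The groups did not overlap, and library 2 stood highest among Opa1-/- + OPA1. The ratio of the means was 3.70 and the difference 0.73 (SE 0.13, limma adjusted p = 0.00306).

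Wnt5a, the main ligand of the polarity branch, was at 3.64, 3.72, 4.07 and 3.25 TPM in Opa1-/- libraries, against 2.22, 2.58, 1.93 and 1.85 TPM in Opa1-/- + OPA1 libraries. All Opa1-/- libraries were above all others, with a difference of 0.58 (SE 0.10, limma adjusted p = 0.00225). Wnt4, a ligand known in kidney and gonad development, was at 3.38, 2.97, 4.34 and 4.26 TPM in Opa1-/- libraries, against 2.22, 2.31, 2.19 and 2.32 TPM in Opa1-/- + OPA1 libraries. It too did not overlap, with a difference of 0.53 (SE 0.11, limma adjusted p = 0.00538).

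The other tested ligands did not pass. Wnt7b was at 0.693, 0.902, 1.44 and 1.17 TPM in Opa1-/- libraries, against 1.20, 1.48, 1.41 and 1.44 TPM in Opa1-/- + OPA1 libraries, and its groups overlapped (difference -0.23, 95% interval -0.52 to 0.07). Wnt9a was at 2.00, 1.33, 1.69 and 1.42 TPM in Opa1-/- libraries, against 1.54, 1.55, 1.61 and 1.74 TPM in Opa1-/- + OPA1 libraries, and the groups overlapped (difference -0.01, 95% interval -0.24 to 0.23). Of the 10 ligands below the filter, Wnt1, Wnt2, Wnt2b, Wnt7a and Wnt11 reached 0.1 TPM in at least 1 library, and Wnt3, Wnt3a, Wnt8a, Wnt8b and Wnt9b did not. Wnt1, Wnt2, Wnt2b and Wnt11 lay between 0 and 0.282 TPM in Opa1-/- libraries, against 0 and 0.239 TPM in Opa1-/- + OPA1 libraries, with groups that overlapped. Wnt7a, a ligand best known from limb and neural development, was at 0.228, 0.0871, 0.222 and 0.0650 TPM in Opa1-/- libraries, against 0.297, 0.323, 0.435 and 0.271 TPM in Opa1-/- + OPA1 libraries. Its groups did not overlap, but it did not pass in the fit with no filter (limma adjusted p = 0.0663).

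Summed over the 19 ligands, the level was 120, 114, 146 and 147 TPM in Opa1-/- libraries, against 197, 201, 216 and 213 TPM in Opa1-/- + OPA1 libraries. Wnt10a and Wnt10b made up 84.6% to 86.1% of that sum in Opa1-/- libraries, against 91.3% to 92.4% in Opa1-/- + OPA1 libraries. The other 17 ligands summed to 18.5, 16.6, 22.1 and 20.5 TPM in Opa1-/- libraries, against 16.2, 17.4, 16.5 and 18.5 TPM in Opa1-/- + OPA1 libraries. The group ranges of that remainder overlapped, so the fall in the ligand sum lay in Wnt10a and Wnt10b, while the make-up of the rest changed through the ligands named above.

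**Figure D2:**
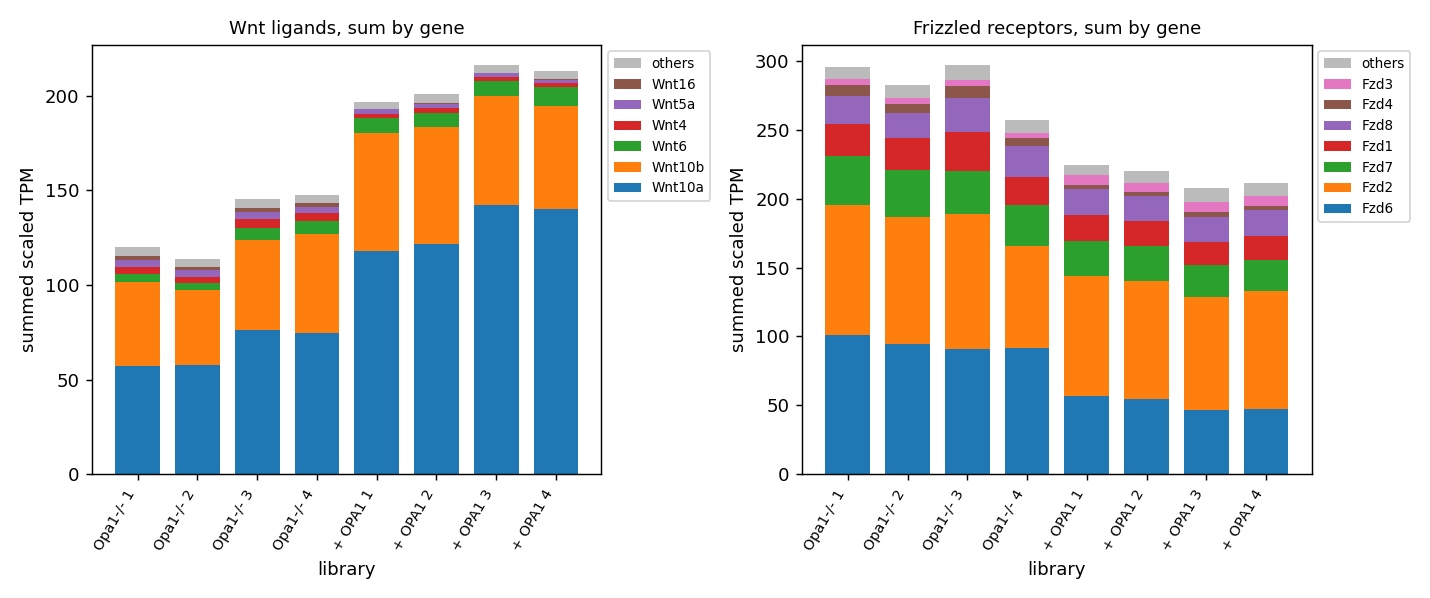
Summed level of the Wnt ligands and of the Frizzled receptors in scaled TPM, by library, with Opa1-/- libraries left of Opa1-/- + OPA1 libraries. The ligand sums lie between 114 and 147 TPM in Opa1-/- and between 197 and 216 TPM in Opa1-/- + OPA1, and the Frizzled sums lie the other way round, between 257 and 297 TPM in Opa1-/- and between 207 and 225 TPM in Opa1-/- + OPA1.

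Among the receptors, Fzd6, Fzd4, Fzd7 and Fzd1 rose in Opa1-/- cells, Fzd3 fell, and Fzd2, Fzd5, Fzd8, Lrp5 and Lrp6 did not pass the test. Fzd6, known for hair and tissue patterning through planar polarity, was the most abundant of those that moved. It was at 101, 94.6, 91.2 and 91.9 TPM in Opa1-/- libraries, against 56.9, 54.4, 46.9 and 47.1 TPM in Opa1-/- + OPA1 libraries. The groups were well separated, with a difference of 0.87 (SE 0.07, limma adjusted p = 5.21e-05). Part of its exon sequence lies opposite the transcript Gm26704, which was at 2.25 to 2.72 TPM in Opa1-/- libraries, against 0.819 to 1.70 TPM in Opa1-/- + OPA1 libraries; strand was not stated, so reads from the 152 shared bases cannot be told apart.

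Fzd4, the receptor for norrin in the vessels of the retina, was at 7.39, 7.21, 8.66 and 5.82 TPM in Opa1-/- libraries, against 3.23, 3.41, 3.53 and 3.09 TPM in Opa1-/- + OPA1 libraries. Every Opa1-/- library was above every other library, and the ratio of the means was 2.19. The difference was 0.93 (SE 0.10, limma adjusted p = 0.000253).

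Fzd7, a receptor known from muscle stem cells and intestinal crypts, was at 35.5, 33.6, 31.3 and 29.5 TPM in Opa1-/- libraries, against 25.0, 25.4, 23.4 and 22.7 TPM in Opa1-/- + OPA1 libraries. Fzd1, its close relative, was at 23.3, 23.0, 28.2 and 20.5 TPM in Opa1-/- libraries, against 19.1, 18.5, 17.0 and 17.5 TPM in Opa1-/- + OPA1 libraries. Neither pair of groups overlapped, with differences of 0.41 (SE 0.06) for Fzd7 and 0.37 (SE 0.09) for Fzd1 (limma adjusted p = 0.00141 and 0.0101).

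Fzd3, a receptor of axon guidance, moved the other way. It was at 4.94, 4.28, 4.68 and 3.86 TPM in Opa1-/- libraries, against 7.00, 6.69, 6.92 and 7.08 TPM in Opa1-/- + OPA1 libraries. All Opa1-/- libraries were below all others, with a difference of -0.55 (SE 0.07, limma adjusted p = 0.000648).

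Fzd2, the most abundant receptor in Opa1-/- + OPA1 cells, was at 94.5, 92.4, 97.9 and 73.7 TPM in Opa1-/- libraries, against 87.3, 85.5, 81.5 and 85.8 TPM in Opa1-/- + OPA1 libraries. Library 4 of Opa1-/- was the lowest of all and the other 3 were above every other library, and the difference of 0.07 (95% interval -0.12 to 0.25) did not pass. Without that library it was 0.16 (limma adjusted p = 0.00808). The ratio of Fzd6 to Fzd2 was 1.07, 1.02, 0.932 and 1.25 in Opa1-/- libraries, against 0.652, 0.635, 0.575 and 0.549 in Opa1-/- + OPA1 libraries, and these did not overlap.

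Fzd5 was at 7.88, 8.07, 9.66 and 8.90 TPM in Opa1-/- libraries, against 6.90, 7.49, 9.50 and 9.17 TPM in Opa1-/- + OPA1 libraries. Fzd8 was at 20.8, 18.1, 24.2 and 22.2 TPM in Opa1-/- libraries, against 18.5, 17.8, 18.1 and 18.3 TPM in Opa1-/- + OPA1 libraries. The groups overlapped for both, with differences of 0.06 (95% interval -0.17 to 0.30) for Fzd5 and 0.22 (95% interval 0.04 to 0.39, limma adjusted p = 0.0624) for Fzd8. Without Opa1-/- library 2, Fzd8 passed, at 0.29 (limma adjusted p = 0.00871).

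The co-receptors showed no difference past the test. Lrp5 was at 21.8, 20.4, 20.8 and 15.2 TPM in Opa1-/- libraries, against 18.3, 18.7, 19.0 and 18.3 TPM in Opa1-/- + OPA1 libraries. Lrp6 was at 31.4, 29.6, 34.1 and 24.7 TPM in Opa1-/- libraries, against 33.2, 31.5, 33.9 and 34.0 TPM in Opa1-/- + OPA1 libraries. In both genes library 4 was the lowest of Opa1-/-, and the groups overlapped, with differences of 0.06 (95% interval -0.16 to 0.28) and -0.15 (95% interval -0.35 to 0.04). Without that library Lrp5 passed at 0.17 (limma adjusted p = 0.00847). Fzd9 stayed below the filter at 0.679 to 1.06 TPM in Opa1-/- libraries, against 0.633 to 0.893 TPM in Opa1-/- + OPA1 libraries, and Fzd10 was listed at 0 in every library.

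**Figure D3:**
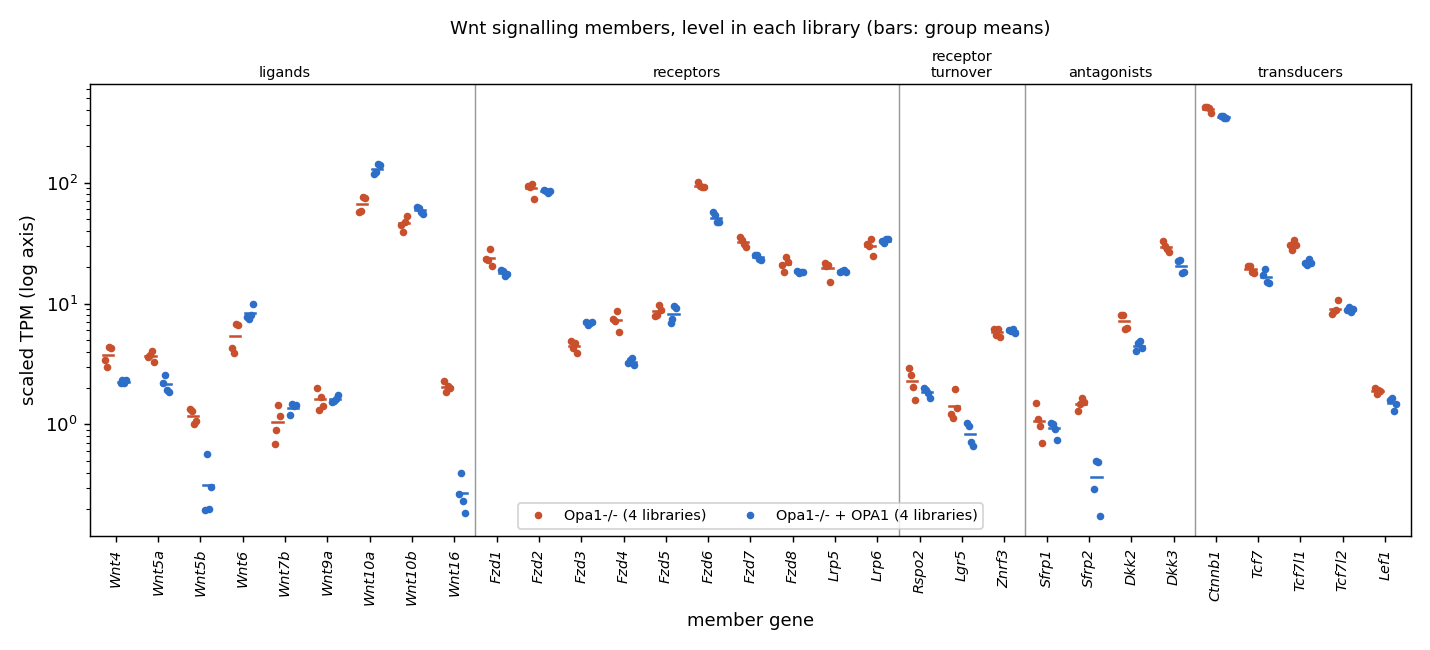
Scaled TPM of the tested Wnt signalling genes in each of the 8 libraries on a log axis, grouped by role, with Opa1-/- drawn left of Opa1-/- + OPA1 for each gene. Fzd6 lies between 91.2 and 101 TPM in Opa1-/- libraries, against 46.9 to 56.9 TPM in Opa1-/- + OPA1 libraries, while Fzd2 overlaps.

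Of the genes that set receptor turnover, 3 were tested and none passed, beside the 33.0% of all tested genes that did. Rspo2, an R-spondin that keeps Frizzleds at the surface, was at 2.94, 2.54, 2.04 and 1.58 TPM in Opa1-/- libraries, against 2.00, 1.93, 1.80 and 1.65 TPM in Opa1-/- + OPA1 libraries. Znrf3, the ligase that removes Frizzleds, was at 6.14, 5.53, 6.13 and 5.27 TPM in Opa1-/- libraries, against 6.07, 5.90, 6.18 and 5.66 TPM in Opa1-/- + OPA1 libraries. Both overlapped between groups, with differences of 0.19 (95% interval -0.12 to 0.49) and -0.04 (95% interval -0.19 to 0.11).

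Lgr5, an R-spondin receptor and stem cell marker, was at 1.22, 1.13, 1.95 and 1.36 TPM in Opa1-/- libraries, against 1.02, 0.971, 0.713 and 0.660 TPM in Opa1-/- + OPA1 libraries. The groups did not overlap, but the difference of 0.38 (SE 0.14, limma adjusted p = 0.0559) stayed short of the threshold. Lgr5 was the 1 gene of this role below an unadjusted p of 0.05, and limma-voom on recovered reads called it (adjusted p = 0.00969). Rnf43, the sister of Znrf3, was below the filter at 0.576, 0.548, 0.495 and 0.723 TPM in Opa1-/- libraries, against 0.359, 0.452, 0.469 and 0.344 TPM in Opa1-/- + OPA1 libraries. Its groups did not overlap either, and it did not pass in the fit with no filter (limma adjusted p = 0.130). Rspo1, Rspo3 and Rspo4 reached at most 0.292, 0.411 and 0.500 TPM in Opa1-/- libraries, against at most 0.108, 0.406 and 0.181 TPM in Opa1-/- + OPA1 libraries.

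Among the antagonists, Sfrp2, Dkk2 and Dkk3 rose and Sfrp1 did not pass. Sfrp2, which binds Wnts outside the cell, was at 1.29, 1.46, 1.66 and 1.53 TPM in Opa1-/- libraries, against 0.291, 0.500, 0.493 and 0.175 TPM in Opa1-/- + OPA1 libraries. Each Opa1-/- library was well above each other one. The ratio of the means was 4.07 and the difference 0.87 (SE 0.12, limma adjusted p = 0.000843). A stretch of 347 bases, 16.1% of its exons, lies opposite Gm26771, which was at 0 to 0.250 TPM in Opa1-/- libraries, against 0 to 0.0484 TPM in Opa1-/- + OPA1 libraries.

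Dkk2, a Dickkopf that binds Lrp5 and Lrp6, was at 8.10, 8.01, 6.20 and 6.23 TPM in Opa1-/- libraries, against 4.06, 4.74, 4.85 and 4.31 TPM in Opa1-/- + OPA1 libraries. Dkk3, the family's divergent member, was at 32.8, 29.7, 28.1 and 26.5 TPM in Opa1-/- libraries, against 22.6, 22.9, 18.0 and 18.3 TPM in Opa1-/- + OPA1 libraries. Neither pair overlapped, with differences of 0.56 (SE 0.10) for Dkk2 and 0.50 (SE 0.10) for Dkk3 (limma adjusted p = 0.00291 and 0.00407). Sfrp1 was at 1.50, 1.11, 0.966 and 0.707 TPM in Opa1-/- libraries, against 1.03, 1.01, 0.922 and 0.750 TPM in Opa1-/- + OPA1 libraries, and overlapped (difference 0.09, 95% interval -0.21 to 0.40). Sfrp4 was below the filter at 0.693 to 1.11 TPM in Opa1-/- libraries, against 0.514 to 0.982 TPM in Opa1-/- + OPA1 libraries, Sfrp5 at 0.0877 to 0.145 TPM in Opa1-/- libraries, against 0.0283 to 0.138 TPM in Opa1-/- + OPA1 libraries, and Dkk1 and Dkk4 did not reach 0.1 TPM.

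Of the transducers, Ctnnb1 and Tcf7l1 rose, and Tcf7, Tcf7l2 and Lef1 did not pass. Ctnnb1, which encodes β-catenin, was at 425, 425, 412 and 376 TPM in Opa1-/- libraries, against 355, 354, 343 and 340 TPM in Opa1-/- + OPA1 libraries. The groups did not overlap, and the shift was small, 0.23 (SE 0.05, limma adjusted p = 0.00507). These are mRNA levels: the pathway acts mainly on the stability of the protein, which was not measured. Of its exons 759 bases lie opposite Ulk4, which was at 1.05 to 1.23 TPM in Opa1-/- libraries, against 1.04 to 1.24 TPM in Opa1-/- + OPA1 libraries.

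Tcf7l1, the TCF factor known mostly as a repressor, was at 30.2, 27.8, 33.2 and 30.3 TPM in Opa1-/- libraries, against 21.8, 20.8, 23.3 and 21.7 TPM in Opa1-/- + OPA1 libraries. All Opa1-/- libraries were above all others, with a difference of 0.45 (SE 0.06, limma adjusted p = 0.000590). Lef1 was at 1.99, 1.79, 1.94 and 1.89 TPM in Opa1-/- libraries, against 1.60, 1.67, 1.29 and 1.46 TPM in Opa1-/- + OPA1 libraries, with no overlap and a difference of 0.22 (SE 0.09, limma adjusted p = 0.0919) that did not pass.

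Tcf7 was at 20.6, 20.5, 18.1 and 17.8 TPM in Opa1-/- libraries, against 17.2, 19.2, 15.0 and 14.9 TPM in Opa1-/- + OPA1 libraries, and overlapped (difference 0.21, 95% interval 0.01 to 0.41, limma adjusted p = 0.101). Tcf7 passed without Opa1-/- + OPA1 library 2 (limma adjusted p = 0.0311). Tcf7l2 was at 8.16, 8.61, 8.79 and 10.6 TPM in Opa1-/- libraries, against 8.84, 9.27, 8.53 and 8.94 TPM in Opa1-/- + OPA1 libraries, and overlapped (difference 0.02, 95% interval -0.16 to 0.19). Axin2, the feedback inhibitor that is the most general transcriptional readout of β-catenin activity, was below the filter. It was at 0.525, 0.361, 0.502 and 0.721 TPM in Opa1-/- libraries, against 0.608, 0.929, 0.501 and 0.595 TPM in Opa1-/- + OPA1 libraries, and the groups overlapped.

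A further 129 Wnt pathway genes, in 7 lists by role, were examined with the members left out; 97 were tested, of which 14 rose and 23 fell, 38.1% against 33.0% of all tested genes. The excess of falls was absent with chromosome medians removed, at 16 higher and 16 lower, and with no filter on low values, at 18 higher and 18 lower. Their median difference was -0.05, beside 0.00 for all tested genes. Without Opa1-/- library 4, 23 rose and 22 fell, so the excess of falls was absent there too. Of those named below, 5 that fell lie on the X chromosome, where the median difference over 301 genes was -0.36, far below that of any other chromosome.

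In the secretion list 1 of 6 tested genes rose and 3 fell, beside 16.3% of all tested genes higher and 16.8% lower. Wls, the carrier that takes Wnts to the cell surface, rose to 82.3 ± 2.05 TPM in Opa1-/- cells, against 62.9 ± 1.16 TPM in Opa1-/- + OPA1 cells (SD, n = 4 each; difference 0.38, limma adjusted p = 8.85e-05). Porcn, the acyltransferase that lipid-modifies Wnts, and the heparan sulphate proteoglycans Gpc3 and Gpc4 fell, by 0.40, 0.75 and 0.81. All of these 3 genes are X-linked, and with chromosome medians removed only Gpc4 still passed, at -0.46 (limma adjusted p = 0.00354). Gpc3 was at 0.411 to 0.613 TPM in Opa1-/- libraries, against 1.03 to 1.96 TPM in Opa1-/- + OPA1 libraries. It was tested only because its Opa1-/- + OPA1 libraries reached 1 TPM. Gpc3 could therefore hardly fail to be lower in Opa1-/- cells, and it is counted among the falls. Gpc4 was at 19.1 ± 2.34 TPM in Opa1-/- libraries, against 34.1 ± 0.943 TPM in Opa1-/- + OPA1 libraries (SD, n = 4 each).

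In the co-receptor list 2 of 9 tested genes rose and 3 fell, beside the same 16.3% and 16.8%. Ror1, a receptor tyrosine kinase of the polarity branch, fell to 2.00 ± 0.153 TPM in Opa1-/- cells, against 3.91 ± 0.192 TPM in Opa1-/- + OPA1 cells (SD, n = 4 each; difference -0.71, limma adjusted p = 0.000195). Tspan12, a tetraspanin that works with Fzd4 in norrin signalling, fell by 0.50 and Ror2 by 0.33; Ror2 no longer passed without Opa1-/- + OPA1 library 1, 2 or 4 (limma adjusted p = 0.0586, 0.0531 and 0.0562). Lrp4 and Lgr4, an R-spondin receptor, rose by 0.53 and 0.30.

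In the list of other antagonists only Apcdd1 and Igfbp4 were tested, and both fell, beside 16.8% of all tested genes. Tpbg, Tsku and Kremen1, held in other lists, are not counted here and did not pass (limma adjusted p = 0.0839, 0.589 and 0.301). Apcdd1, a membrane inhibitor, was at 78.5 ± 9.13 TPM in Opa1-/- cells, against 112 ± 5.49 TPM in Opa1-/- + OPA1 cells, and Igfbp4 at 84.8 ± 1.59 TPM in Opa1-/- libraries, against 123 ± 18.8 TPM in Opa1-/- + OPA1 libraries (SD, n = 4 each). Their differences were -0.51 and -0.52 (limma adjusted p = 0.00162 and 0.00333). The listed antagonists below the filter were not tested. Among them Sost was at 0.655 to 0.883 TPM in Opa1-/- libraries, against 0.209 to 0.354 TPM in Opa1-/- + OPA1 libraries. Frzb was at 0.159 to 0.361 TPM in Opa1-/- libraries, against 0.0166 to 0.0499 TPM in Opa1-/- + OPA1 libraries. No listed antagonist below the filter was lower in every Opa1-/- library.

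Of the cytoplasmic genes 26 were tested, and 5 rose and 3 fell, 30.8% called, near the 33.0% of all tested genes. Dact2, a Dishevelled partner, Apc2, a relative of the scaffold Apc, and Frat2, which binds GSK3, rose by 0.56, 0.49 and 0.39, and Nkd1, a Dishevelled inhibitor induced by the pathway, fell by 0.51. Amer1 and Dvl1 also fell, by 0.34 and 0.22. With chromosome medians removed Nkd1 and Dvl1 no longer passed (limma adjusted p = 0.0920 and 0.197), and X-linked Amer1 stood at 0.00. Gsk3b, a kinase that marks β-catenin for degradation, was at 19.3 ± 1.21 TPM in Opa1-/- libraries, against 20.4 ± 0.258 TPM in Opa1-/- + OPA1 libraries (SD, n = 4 each), and did not pass. The related Gsk3a rose by 0.17 (limma adjusted p = 0.0231). Gsk3a was at 91.9 ± 5.47 TPM in Opa1-/- libraries, against 81.3 ± 2.60 TPM in Opa1-/- + OPA1 libraries (SD, n = 4 each).

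Of 19 nuclear partners 5 rose and 4 fell, 47.4% called beside 33.0% of all tested genes. Tle6, a Groucho-family protein, rose by 0.57, and Tle4, a co-repressor, Ctnnbip1, an inhibitor of β-catenin, and X-linked Tbl1x fell by 0.27, 0.26 and 0.37. Tle1, Aes, Tbl1xr1 and Cby1 also rose, by 0.25, 0.22, 0.21 and 0.20, and Chd8 fell by 0.21. The Tle and Tbl1 genes were thus split in direction. Tbl1x and Ctnnbip1 did not pass with chromosome medians removed (limma adjusted p = 0.763 and 0.289), and Ctnnbip1 did not pass without Opa1-/- library 3 or Opa1-/- + OPA1 library 1 or 2 (0.0540, 0.0651 and 0.0666).

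Of 23 planar polarity and calcium genes 1 rose and 4 fell, at 21.7% called, below the 33.0% of all tested genes. Fuz, a protein of cilium formation, rose by 0.58, and Nfatc3, a calcium-responsive factor, fell by 0.36 but did not pass with chromosome medians removed (limma adjusted p = 0.106). Prickle1 and Mapk8 passed narrowly and lost the call under most alternatives.

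Of the 32 listed transcriptional targets, which include 4 of the tested members and the feedback genes Nkd1 and Apcdd1, 18 were tested. By limma none rose, beside 16.3% of all tested genes, and 6 fell, beside 16.8%. On the higher side 3 were below an unadjusted p of 0.05, the members Lef1, Lgr5 and Tcf7, and limma-voom on recovered reads called 2 higher and 8 lower. The 6 that fell by limma were Nkd1 and Apcdd1, then Jag1, a Notch ligand, by 0.35, Twist1, a mesenchymal factor, by 0.33, Sox9 by 0.32 and Cd44 by 0.23. With chromosome medians removed Nkd1 no longer passed (limma adjusted p = 0.0920). Of the untested targets, Cdx2, Ephb2 and the member Rnf43 were higher in every Opa1-/- library, and none was lower in every one. Cdx2 was at 0.538 to 0.838 TPM and Ephb2 at 0.807 to 1.08 TPM in Opa1-/- libraries, against 0.0476 to 0.235 and 0.527 to 0.753 TPM in Opa1-/- + OPA1 libraries. Ccnd1, a cyclin, was at 315 ± 21.6 TPM in Opa1-/- cells, against 334 ± 6.60 TPM in Opa1-/- + OPA1 cells, and Myc at 138 ± 23.6 TPM in Opa1-/- libraries, against 157 ± 22.9 TPM in Opa1-/- + OPA1 libraries (SD, n = 4 each), and neither passed (limma adjusted p = 0.228 and 0.324).

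**Figure D4:**
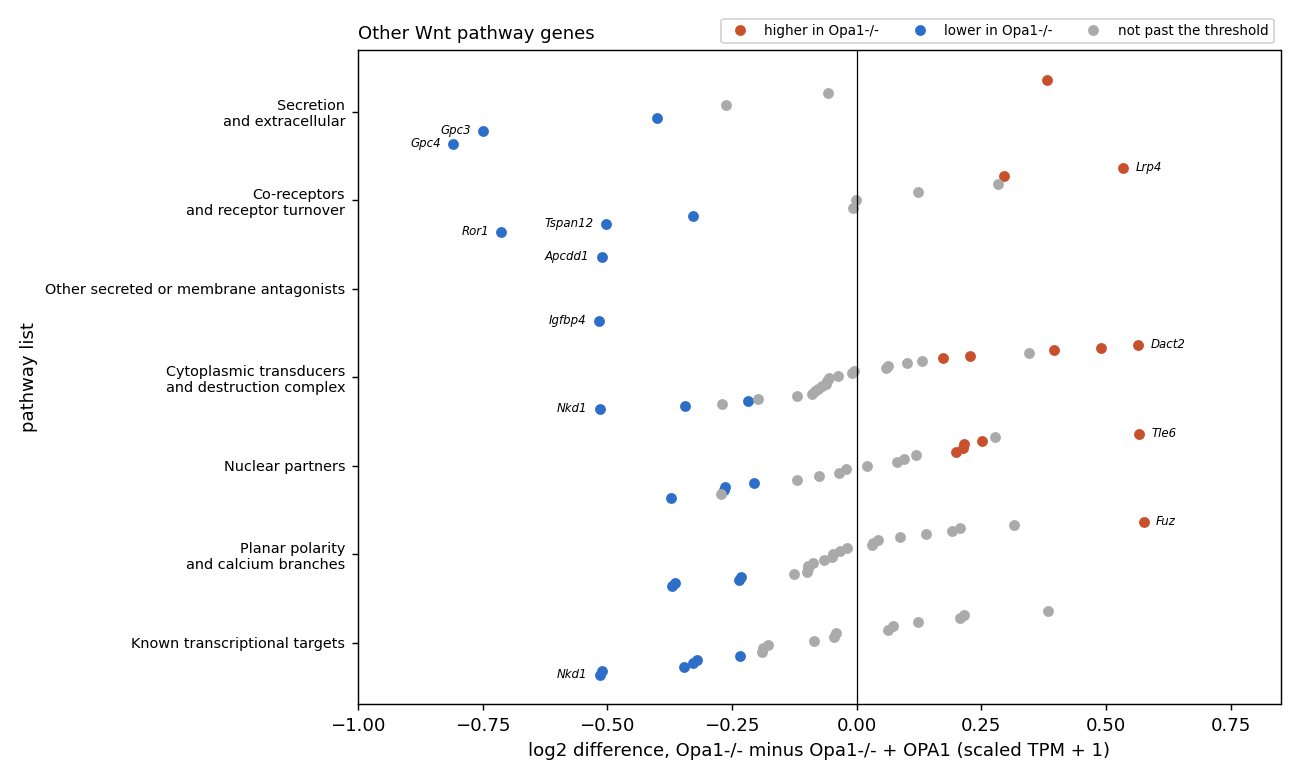
Log2 difference, Opa1-/- minus Opa1-/- + OPA1, for the tested genes of 7 lists of Wnt pathway genes, 1 point per gene and list, orange where higher in Opa1-/-, blue where lower and grey where the test was not passed. The targets list repeats Nkd1 and Apcdd1 from other lists and includes the members Znrf3, Lgr5, Lef1 and Tcf7. In the targets list no gene is past the test on the higher side and 6 are on the lower side.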

How the data were processed

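The authors deposited TPM values per gene and library, per the file headers; each library sums to 1000000 TPM. The tools named in the submitters' processing notes are STAR 2.5.2b, bcl2fastq 2.17, Subread 1.5.2 and featureCounts, beside the builds GRCh38 and mm10, whose roles are not stated. RNA was extracted with an RNeasy Plus kit and libraries came from a NEBNext Ultra II kit, per the labels' protocols; the sources used here do not state strandedness.

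Genes at or above 1 TPM in at least 4 of 8 libraries were tested (14272 of 49315). TPM were scaled over these genes with trimmed mean log ratios (trim of 30% on ratios, 5% on levels) and fitted as log2(scaled TPM + 1) with limma 3.58.1 (R 4.3.3, mean-variance trend, no covariates, two-sided, Benjamini-Hochberg over all genes, threshold 0.05). The step was tested on simulated data. Between 97.1% and 97.6% of low values gave whole reads (within 0.05) from exon lengths of GENCODE M21, so depth was recovered. Coordinates are GRCm38, the assembly of mm10. No pair of libraries was closer than a chi-square of 4.72 per degree of freedom, so none looked duplicated. Mir6236, Gm42418, Gm24270 and Gm23935, of small or ribosomal RNA, together take 5.29% to 15.5% of the TPM.

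Alternatives changed the pseudocount, scaling, filter, trend, replicate block or libraries, removed trends with exon length and GC or each chromosome's median deviation per library (over chromosomes with enough well-expressed genes), or used limma-voom on recovered reads. Every tested member is named; of the other lists, at most 4 called genes with the largest difference and up to 3 that moved against the rest. Gsk3b, Gsk3a, Tpbg, Tsku, Kremen1, Tle1, Tbl1xr1, Aes, Cby1, Chd8, Ccnd1, Myc, Sox9, Cd44, Sost, Frzb, Cdx2 and Ephb2 were named after their values were seen. Members, lists and rules were chosen with earlier results of these data known. Python 3.11.15, numpy 2.4.6, pandas 2.3.3 and matplotlib 3.10.9 were used.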

Additional observations from a re-analysis of the deposited data

Results flagged for a closer look

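In 7 of 142 groups of 4 libraries examined for Dixon's gap, 1 library lay far from the others; chance flags about 1 in 20 groups, so this is near what chance gives. Sfrp4 was at 0.514 TPM in Opa1-/- + OPA1 library 3, with the others at 0.953 to 0.982 TPM. Sfrp5 was at 0.0877 TPM in Opa1-/- library 1, with the others at 0.136 to 0.145 TPM. Apcdd1 was at 120 TPM in Opa1-/- + OPA1 library 3, with the others at 108 to 109 TPM. Lrp4 was at 4.14 TPM in Opa1-/- + OPA1 library 1, with the others at 3.52 to 3.61 TPM. Mapk8 was at 8.61 TPM in Opa1-/- + OPA1 library 1, with the others at 7.14 to 7.29 TPM. Nkd1 was at 4.43 TPM in Opa1-/- + OPA1 library 2, with the others at 3.87 to 3.93 TPM. Opa1 was at 15.6 TPM in Opa1-/- + OPA1 library 1, with the others at 14.5 to 14.6 TPM.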

How the results depend on the processing

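Across 18 alternatives, 16 of the 17 changed members kept call and direction, none reversed, and Wnt6 lost the call in 5. Of the 14 others, Fzd2, Fzd8, Lrp5, Lgr5, Tcf7 and Lef1 passed in some. Leaving out each library in turn gave 16 to 19 changed members (13 to 15 higher, 3 to 4 lower), 3547 to 5413 genes in all (1747 to 2640 higher, 1800 to 2773 lower) and 30 to 45 other pathway genes (11 to 23 higher, 18 to 23 lower); the 23 higher, against 14 with all libraries, came without Opa1-/- library 4, and the cause was not tested. Without the added scaling, 1529 of all genes were lower (1752 higher), against 2392 (2322 higher). Limma-voom on recovered reads, chosen after seeing the data, gave 20 members; chromosome medians removed, also chosen after seeing the data, gave 17 members and 32 other pathway genes (16 higher, 16 lower), and Amer1 reversed to 0.0012. Libraries with the same number correlated in their deviations at 0.0484, 0.101, 0.140 and 0.0118, which is not above 0.1 for every pair, so the numbers were not taken as pairs. Each was still the highest correlation of its Opa1-/- library, with unlike numbers at -0.152 to 0.0606. Opa1-/- + OPA1 library 4 correlated most with Opa1-/- library 3. Both libraries numbered 3 had their group's lowest small and ribosomal RNA share (5.29% in Opa1-/- + OPA1, with 13.6% to 15.5% in the libraries not numbered 3). Leaving both out gave 17 members. The fit with the replicate number as a block gave 18 members (14 higher, 4 lower), 4756 genes in all and 41 other pathway genes, with Tcf7 passing (limma adjusted p = 0.0230). Genes under about 1 TPM rest on few reads, so a difference there may not be detectable at this depth.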
